A study of Homo sapiens with 4 samples.

Results

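The LIM homeobox genes are a family of developmental transcription factor genes, and 10 of them were examined for MEIS binding: LHX1, LHX2, LHX3, LHX4, LHX5, LHX6, LHX8, LHX9, LMX1A and LMX1B. They were taken by name from the 20098 protein-coding genes annotated on the autosomes and the X chromosome of GRCh37. Each gene was given a window that reached 250 kb beyond its body on both sides, and every peak with its summit in that window was counted. Windows of different members did not share a reproducible site, and all 10 together covered 5.43 Mb.

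The cells were human neural stem cells (hNSC), a commercial culture grown in serum-free medium and left untreated. Per the labels and the study's methods, 2 MEIS ChIP samples from 2 batches of cells were immunoprecipitated with an antibody to MEIS1 and MEIS2 mixed with one to MEIS1, so a peak does not tell which protein was bound. The 2 Input samples carry sheared chromatin without immunoprecipitation and enter only through the peak calling. A peak list holds no expression values, so neither the identity of the cells nor the activity of any gene named here could be checked.

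LIM homeodomain proteins carry a pair of LIM domains, which bind partner proteins, and a homeodomain, which binds DNA at sequences such as TAATTA. Through the LIM domains they assemble with LDB adaptor proteins into larger complexes, and their combinations mark classes of neurons in brain and spinal cord. The members form closely related pairs: LHX1 with LHX5, LHX2 with LHX9, LHX3 with LHX4, LHX6 with LHX8, and LMX1A with LMX1B. MEIS1 and MEIS2 are homeodomain proteins of another class, TALE, and bind the core TGACAG, often beside a PBX protein.

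Reproducible MEIS sites, those kept by the authors' comparison of both replicates (irreproducible discovery rate, IDR, of 0.01 or less), lay near 4 of the 10 members. LHX2 had 2 of them and LHX8, LHX9 and LMX1B had 1 each, which makes 5 of the 5169 sites of the list. Among all protein-coding genes, 47.7% had at least 1 site in a window drawn in the same way, so the share of members was not higher than this background. All 5 sites lay in an intron of a neighbouring gene, where 41.9% of all sites lie in an intron of some protein-coding gene, and 0 lay in the body of a member. The nearest was 115 kb from the body of its member. Within 100 kb of the body, 0 of the 10 members had a site, against 27.3% of all protein-coding genes.

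**Figure D1:**
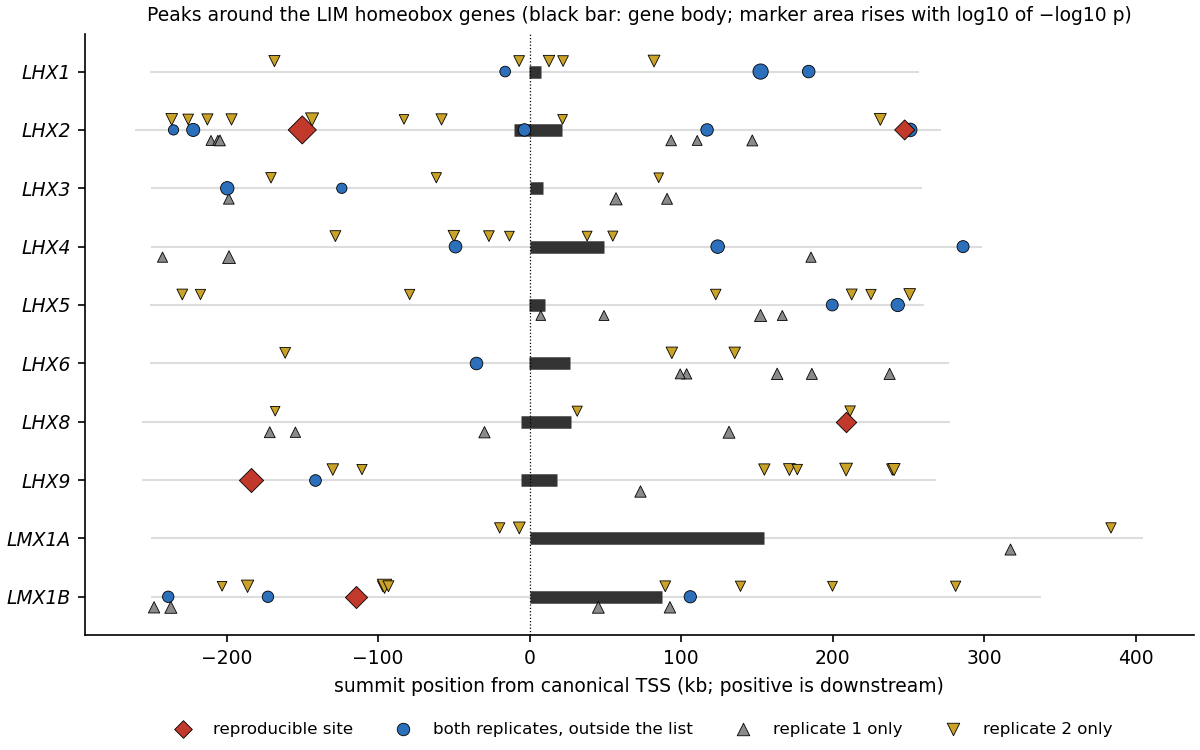
Position of every MEIS peak summit in the 10 windows, in kb from the canonical transcription start site (TSS) and oriented so that transcription runs to the right; black bars are gene bodies, grey lines the windows, and marker area rises with the logarithm of −log10 p (replicate 1 values for peaks of both replicates). The 5 reproducible sites (red diamonds) all lie more than 100 kb from the TSS of LHX2, LHX8, LHX9 or LMX1B, and LMX1A has no peak that both replicates share.

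The reference sequence at the 5 summits is shown first, because every one of these sites holds the MEIS core. The bases are from GRCh37, forward strand, centred on the summit. Capitals mark matches to TGACAG (read CTGTCA on the other strand), to AACAAT (read ATTGTT on the other strand), a SOX core, and to a PBX-MEIS composite, which is TGAN directly before TGACAG and therefore includes it.
LHX2 site in DENND1A, chr9:126623855-126624154: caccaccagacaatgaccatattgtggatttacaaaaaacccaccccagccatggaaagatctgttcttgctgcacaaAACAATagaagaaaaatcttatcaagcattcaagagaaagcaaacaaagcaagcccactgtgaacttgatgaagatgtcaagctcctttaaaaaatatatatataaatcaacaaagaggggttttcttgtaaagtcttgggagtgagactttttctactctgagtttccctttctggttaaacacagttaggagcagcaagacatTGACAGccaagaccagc
LHX9 site in DENND1B, chr1:197702741-197703040: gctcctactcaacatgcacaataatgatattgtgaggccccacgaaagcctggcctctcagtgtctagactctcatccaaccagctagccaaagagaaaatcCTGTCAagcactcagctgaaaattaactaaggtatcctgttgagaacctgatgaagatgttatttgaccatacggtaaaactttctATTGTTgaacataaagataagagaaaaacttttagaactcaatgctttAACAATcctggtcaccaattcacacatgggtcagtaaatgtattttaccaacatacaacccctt
LHX2 site in NEK6, chr9:127021366-127021485: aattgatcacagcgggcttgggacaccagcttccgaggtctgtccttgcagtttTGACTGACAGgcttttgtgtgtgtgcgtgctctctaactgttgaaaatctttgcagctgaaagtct
LHX8 site in SLC44A5, chr1:75808558-75808677: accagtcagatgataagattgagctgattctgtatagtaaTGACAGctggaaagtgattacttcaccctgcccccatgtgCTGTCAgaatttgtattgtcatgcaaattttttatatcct
LMX1B site in MVB12B, chr9:129261504-129261623: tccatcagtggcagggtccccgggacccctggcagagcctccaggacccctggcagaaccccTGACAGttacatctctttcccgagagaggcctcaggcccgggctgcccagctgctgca

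LHX2 (ENSG00000106689.11, chr9:126763949-126795580, forward strand) specifies cortical identity and the eye field, and it had the strongest site of the family. That site, chr9:126623005-126626228, lay in intron 2 of DENND1A, a gene for an activator of the small GTPase RAB35. It was 150 kb upstream of the canonical LHX2 TSS and 140 kb from the gene body. Values of the 2 replicates are given in their order from here on: −log10 p reached 671 and 525, and the fold enrichment over input 48.97 and 72.3. Both replicates placed it near the top of their lists, at rank 66 of 36796 peaks and rank 132 of 47449 peaks, and its −log10 p in the list of reproducible sites ranked 91 of 5169.

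The site was also unusually wide, at 3224 bp against a median of 1086 bp for all sites, which put it at the 99.7th percentile. The only TGACAG in the 500 bp around its summit lay 136 bp from it, farther than the nearest copy in the other 4 sites. The rest of the site's width was not searched. The nearest canonical TSS was that of DENND1A, at 68.4 kb, and this was the one TSS of a protein-coding gene between the site and LHX2. DENND1A held 6 of the 13 replicate 1 peaks and 9 of the 17 replicate 2 peaks in the LHX2 window, but apart from the site only 2 of them in replicate 1 overlapped a replicate 2 peak. Those pairs had a −log10 p of 9.68 and 4.78 in one case, and 2.71 and 3.95 in the other.

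The other LHX2 site, chr9:127021033-127021781, lay in intron 1 of NEK6, which encodes a mitotic kinase. It was 247 kb downstream of the LHX2 TSS and 1.2 kb from that of NEK6. The replicates called it at a −log10 p of 16.7 and 27.5, with 4.68-fold and 9.91-fold enrichment, which left it at rank 4394 of all sites. It was the one site of the 5 with the PBX-MEIS composite, centred 2 bp from the summit. A second pair of peaks stood beside it in the same intron, at a −log10 p of 12.6 and 9.08, and was outside the list.

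LHX9 (ENSG00000143355.16, chr1:197881032-197904608, forward strand), the close relative of LHX2, acts in the gonad, the limb and the diencephalon. Its site, chr1:197702382-197703455, lay in intron 2 of DENND1B, the relative of DENND1A. It was 184 kb upstream of the LHX9 TSS, 178 kb from the gene body and 41.7 kb from the DENND1B TSS. Between the site and the LHX9 TSS lay 2 canonical TSSs of protein-coding genes. Here −log10 p was 95.4 and 199.8, and the enrichment 11.2-fold and 32.02-fold. The replicates therefore differed more here than at most sites: replicate 2 exceeded replicate 1 by 2.87-fold in enrichment, where the median over all sites was 1.80-fold and the 90th percentile 2.78-fold. Even the lower value put the site at rank 755 of 5169.

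LHX2 and LHX9 thus each had their strongest site upstream, in the second intron of a DENND1 gene, and the sequences at both summits were compared after this was noticed. Over 2000 bp centred on each summit, the best local alignment spanned 71 columns with 52 identical bases (73.2%) and 1 gap, on the same strand as both LIM genes. It ran from 64 bp before to 5 bp after the LHX2 summit and from 59 bp before to 11 bp after the LHX9 summit. The stretches are shown because they cover both summits of the list, with capitals for identical bases.
LHX2 site in DENND1A, chr9:126623941-126624010: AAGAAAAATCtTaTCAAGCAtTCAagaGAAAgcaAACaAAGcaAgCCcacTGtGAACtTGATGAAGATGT
LHX9 site in DENND1B, chr1:197702832-197702902: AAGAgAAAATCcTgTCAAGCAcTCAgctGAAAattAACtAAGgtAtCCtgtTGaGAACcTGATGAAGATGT

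The longest run shared without a difference, TGATGAAGATGT, is 12 bp long and holds both summits of the list. The LHX2 summit lies inside it and the LHX9 summit is its first base. These summits lie between those of the replicates, which were 30 bp apart at LHX2 and 14 bp apart at LHX9. At LHX2 neither replicate summit (126623990 and 126624020) fell in the run, chr9:126623999-126624010, and that of replicate 2 lay outside the aligned stretch. At LHX9 only the replicate 2 summit (197702898) fell in the run, chr1:197702891-197702902. The run was found in the 500 bp windows of 6 of the 5169 sites (0.116%). This count includes both sites from which the run was taken, where its presence was fixed in advance. The LHX9 stretch includes the TGACAG of that site's 500 bp window, on the reverse strand, while the LHX2 stretch has none on either strand. The alignment scored 40.1 bits, and the other 9 pairs that can be formed from the 5 sites reached between 23.8 and 27.4 bits. A shorter alignment of 34 columns with 27 identical bases (27.4 bits) lay about 300 bp upstream, from -335 to -302 bp at LHX2 and from -329 to -297 bp at LHX9, in the same order and at nearly the same spacing.

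**Figure D2:**
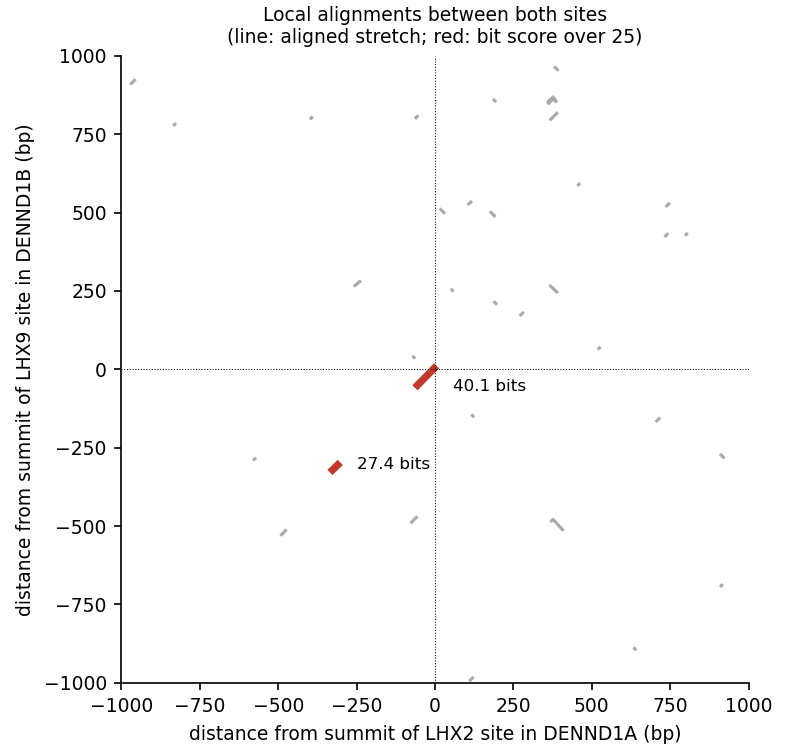
Local alignments between the 2000 bp around the summit of the LHX2 site in DENND1A (horizontal axis, bp from the summit) and the LHX9 site in DENND1B (vertical axis, bp from the summit), each drawn as a line over its aligned stretch. The alignments of 40.1 and 27.4 bits (red) fall on one diagonal and the former reaches both summits of the list, where the dotted lines cross. The other alignments (grey) score 22.9 bits or less.

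LMX1B (ENSG00000136944.19, chr9:129376207-129463311, forward strand) patterns the dorsal limb, the midbrain and serotonergic neurons. Its site, chr9:129261153-129262142, lay in intron 9 of MVB12B, a gene of the endosomal sorting machinery, 115 kb upstream of the LMX1B TSS. That TSS was the nearest one, so this was 1 of 2 sites that would also be assigned to a member by nearest TSS. The −log10 p values, 39.4 and 37.04, were close, both replicates gave the same summit base, and enrichment was 7.69-fold and 12.1-fold. TGACAG was centred 4 bp from the summit.

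LHX8 (ENSG00000162624.16, chr1:75594119-75627218, forward strand) directs cholinergic neurons of the basal forebrain. Its site, chr1:75808163-75809028, lay in intron 3 of SLC44A5, a choline transporter-like gene, 209 kb downstream of the LHX8 TSS, which was again the nearest TSS. At −log10 p values of 19.6 and 19.8 and an enrichment of 5.03-fold and 7.49-fold, it was the weakest of the 5 sites in replicate 2. Its window was the only one with several copies of the MEIS core, 3 within 500 bp, of which 2 lay 18 and 22 bp from the summit, on opposite sides. That summit lies between those of the replicates, which were 41 bp apart. The replicate 1 summit (75808598) was the first base of one copy, and the replicate 2 summit (75808639) lay inside the other. LHX8 was also the member with no other protein-coding TSS in its window.

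Across these sites the strength varied widely, from a −log10 p of 16.7 to 525 in the list, with a median of 37.04 that stood at the 60.5th percentile of all sites. TGACAG was present in 5 of 5 windows of 500 bp (95% Wilson interval 56.6 to 100%), against 58.3% of all sites. In windows of 200 bp it was in 4 of 5, because the copy in the DENND1A site lies outside, against 46.4% of all sites. The composite was in 1 of 5 sites and 7.54% of all sites, and AACAAT in 2 of 5 (40.0%) and 38.2%. TAATTA, the sequence LIM homeodomains bind, and GGAATG, a TEAD core, were in 0 of 5 (Wilson upper bound 43.45%), against 18.2% and 38.1% of all sites. With 5 sites the intervals are wide, and each background share lay inside that of the member sites. When the LHX8 window was centred on the replicate 1 summit, it did contain a TAATTA, so that count rests on the window's edge.

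**Figure D3:**
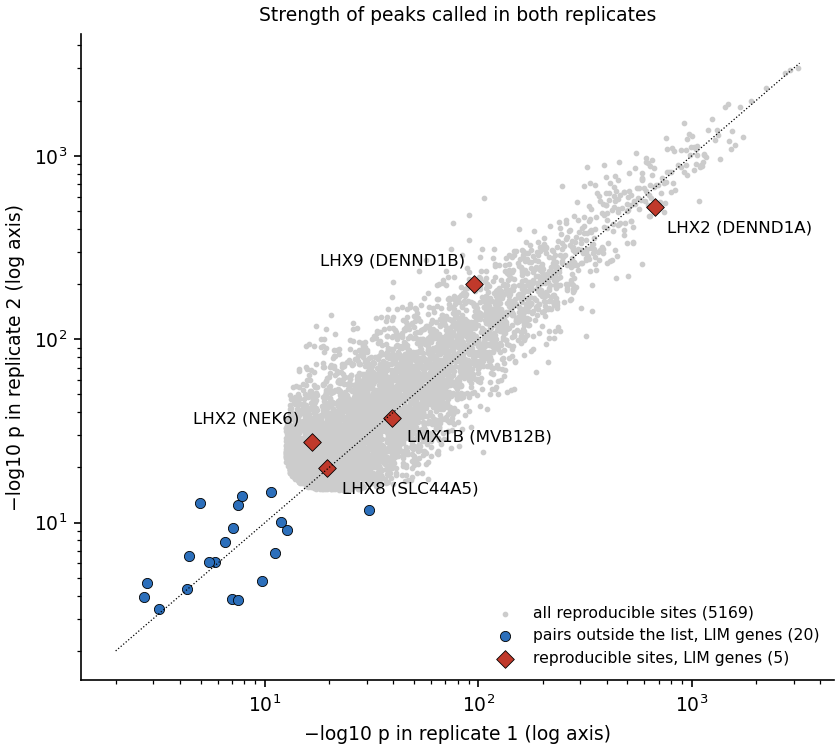
Peaks called in both replicates, by −log10 p in replicate 1 (horizontal, log axis) and replicate 2 (vertical, log axis), with all 5169 reproducible sites in grey and equal values on the dotted line. The 5 sites near LIM homeobox genes (red diamonds, with the gene that holds each site) range from the lower edge of the list to its upper part, and in the 20 pairs outside the list (blue) the lower of both values is at most 11.8.

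The remaining 6 members had no site, and the nearest one lay outside their windows. For LHX1 it was 281 kb from the gene body, with a −log10 p of 71.1, for LHX6 it was 318 kb away (25.9), and for LHX3 370 kb (60.3). For LHX4, LMX1A and LHX5 it was 558 kb, 610 kb and 1747 kb away.

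Weaker peaks that both replicates called stood near 5 of these 6 members, a share that was not computed over all genes. LHX1 (ENSG00000273706.5, chr17:35294084-35301912, forward strand), which acts in the head organizer and in Purkinje cells, had the strongest, in intron 54 of ACACA, 152 kb downstream of its TSS. With −log10 p values of 30.6 and 11.8 and an enrichment of 6.53-fold and 5.49-fold, it was called by both replicates 6 bp apart. The annotation of LHX1 was carried over to GRCh37 only in part, which adds uncertainty to its window. Another pair in ACACA, in intron 49, had values of 7.48 and 12.5.

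LHX5 (ENSG00000089116.4, chr12:113899838-113910085, reverse strand), a factor of the forebrain and hippocampus, had its strongest pair in intron 2 of TPCN1, 243 kb downstream, with a −log10 p of 10.7 and 14.7. LHX4 (ENSG00000121454.6, chr1:180199399-180248119, forward strand), which shapes the pituitary with LHX3, had one in intron 6 of ACBD6, 124 kb downstream, with values of 11.9 and 10.2. LHX3 (ENSG00000107187.17, chr9:139088096-139096974, reverse strand), a factor of the pituitary and of motor neurons, had one in the untranslated part of exon 10 of ENTR1, 200 kb upstream, with 11.2 and 6.88. LHX6 (ENSG00000106852.16, chr9:124964856-124991905, reverse strand), which marks cortical interneurons, had a single weak pair 35.7 and 35.9 kb upstream, with 7.52 and 3.79. Its replicate 1 summit lay 0.18 kb from the RBM18 TSS and its replicate 2 summit 0.018 kb from the MRRF TSS.

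LMX1A (ENSG00000162761.14, chr1:165171104-165325952, reverse strand), a factor of midbrain dopaminergic neurons and the roof plate, was the member with the fewest peaks. Its window of 655 kb, the longest of all, held 1 peak of replicate 1 and 3 of replicate 2, and none overlapped. The closest to its TSS was a replicate 2 peak 6.88 kb upstream, with a −log10 p of 5.38. LMX1A and LMX1B, its relative, therefore differed in every count, with 1 and 8 peaks in replicate 1, 3 and 13 in replicate 2, and 0 and 1 sites.

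Peak numbers were set against 200 protein-coding genes of the most similar body length for each member, and the percentile gives the share of those genes with fewer peaks, with ties split evenly. LHX2 stood highest in both replicates, at percentiles of 90.0 with 13 peaks and 91.0 with 17 peaks. LMX1A stood lowest, at 2.75 and 4.50. The other 8 members had 3 to 8 peaks in replicate 1, at percentiles from 13.8 to 51.2, and 4 to 13 in replicate 2, at percentiles from 10.5 to 74.8. The median member was at 37.9 in replicate 1 and 50.8 in replicate 2. The replicates did not order these 8 members in the same way: LHX9 was at 13.8 and 67.8, and LHX6 at 41.2 and 10.5.

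By reproducible sites, LHX2 reached a percentile of 89.0, since 15.5% of its 200 length-matched genes had 2 or more. LHX9 was at 70.8, LHX8 at 67.8 and LMX1B at 59.2, and the 6 members without a site at 21.0 to 29.8. The median over the 10 members was 29.8. These values moved when a single replicate was used, taking as many of its strongest peaks as the list has sites. With replicate 2 alone, 3 members had such a peak and LHX8 was lost. With replicate 1 alone, 5 had one, LHX1 among them, and LHX2 kept 1 of its 2. The median percentile among length-matched genes was 30.1 with replicate 2 alone and 44.4 with replicate 1 alone.

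**Figure D4:**
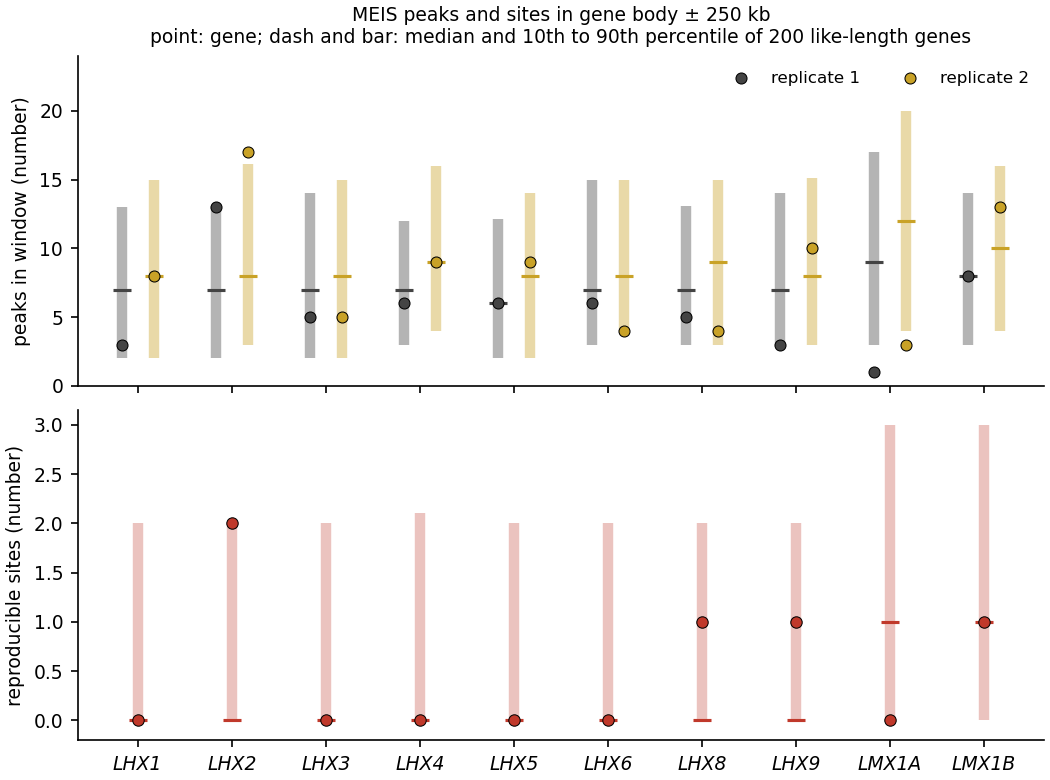
Number of peaks (top, both replicates) and of reproducible sites (bottom) in the window of each member (points), with the median (dash) and the 10th to 90th percentile (bar) of its 200 length-matched protein-coding genes. LHX2 reaches 13 and 17 peaks and 2 sites, at or above the top of its bars, and LMX1A falls below its bars with 1 and 3 peaks.

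In all, the windows held 56 peaks of replicate 1 and 82 of replicate 2, with a median −log10 p of 4.46 and 4.01, against 4.78 and 4.68 over all peaks. Of the replicate 1 peaks, 25 (44.6%, Wilson interval 32.4 to 57.6%) overlapped a replicate 2 peak, against 49.0% of all replicate 1 peaks. Of the replicate 2 peaks, 26 (31.7%, 22.6 to 42.4%) overlapped a replicate 1 peak, against 38.0%. The overlapping peaks were the stronger ones, with a median −log10 p of 7.52 against 3.62 in replicate 1 and 8.44 against 3.38 in replicate 2. Of the 56 replicate 1 peaks, 5 belonged to a reproducible site, against 14.1% of all replicate 1 peaks.

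The 25 overlapping replicate 1 peaks comprised the 5 sites and 20 pairs outside the list. In those 20, the lower −log10 p of the 2 replicates ranged from 2.71 to 11.8, with a median of 5.63 against 5.95 for all 12864 such pairs. TGACAG was in 7 of the 20 (35.0%, 18.1 to 56.7%), against 51.3% of all such pairs, and TAATTA in 3 (15.0%), against 16.5%. The member's own TSS was the nearest one for 4 of the 20, a share that was not computed for the windows of all genes. Those 4 were the LHX4 pair in ACBD6 and a pair 16.2 kb upstream of LHX1 (−log10 p 3.20 and 3.38), together with 2 at LHX2, one in its body and one 117 kb downstream (7.03 and 3.82).

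Among the rest of these pairs, some stood at the start of a neighbouring gene. LHX9 had one 141 kb upstream and 0.515 kb from the DENND1B TSS, with a −log10 p of 4.97 and 12.7, and LHX3 had one 1.05 kb from the GPSM1 TSS, with 2.81 and 4.68. Others were in introns, such as that of LHX4 in intron 5 of QSOX1, 48.9 kb upstream of the LHX4 TSS, where the values were 7.85 and 13.96. LMX1B had 3 pairs besides its site: in introns 2 and 7 of MVB12B, 239 and 173 kb upstream, and 105.9 kb downstream outside any protein-coding gene (6.48 and 7.80). LHX8 had none besides its site. In the pair in MVB12B intron 2 the summits lay 1428 bp apart, so the replicates did not place it at the same position.

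Promoters of the 10 members carried no called peak. A summit of either replicate lay within 1 kb of the canonical TSS in 0 of 10 members, against 22.9% of all protein-coding genes, and summits of both replicates in 0 of 10, against 9.01%. LHX2 came closest. A pair in its gene body, upstream of the canonical transcript, had its summits 3.47 and 3.41 kb before the TSS, at −log10 p values of 7.11 and 9.32 and an enrichment of 2.73-fold and 4.96-fold. This was also the only pair inside the body of any member, and its window held a TAATTA and no TGACAG. Peaks of 1 replicate within 10 kb of a TSS were seen at LHX1 (6.98 kb upstream, −log10 p 3.38, replicate 2), LMX1A (6.88 kb upstream, 5.38, replicate 2) and LHX5 (7.31 kb downstream, 2.27, replicate 1).

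The same windows were drawn for 12 further genes that belong to this family or work with it. They were the LIM homeodomain factors ISL1 and ISL2, the adaptors LDB1 and LDB2, and the LDB partners SSBP2, SSBP3 and SSBP4. The LIM-only genes LMO1 to LMO4 and the ubiquitin ligase gene RLIM completed the list. Sites were found near 7 of the 12, 12 sites in all, against the background of 47.7% given above. Of these genes, 3 carried a site in their own body, a share that was not computed over all genes. They were the longest of the 12: LDB2 (397 kb), SSBP2 (339 kb) and SSBP3 (188 kb). Among their length-matched genes, 69.5%, 73.5% and 63.5% had a site in a window drawn in the same way. SSBP2 had one in the untranslated part of exon 1, 15 bp from the TSS, with a −log10 p of 81.6, and a weak one in intron 3 (14.4), besides another site 100.6 kb upstream of its TSS (78.4). LDB2 had 2 in introns 1 and 2 (39.2 and 32.2), and SSBP3 had one in intron 4 (165). The strongest of the 12 lay in intron 28 of SCAPER, 40.2 kb downstream of the ISL2 TSS, which was its nearest TSS. It reached a −log10 p of 278, and the 500 bp around its summit lacked TGACAG. LDB1 had 3 sites, all in other genes (ARMH3 and GBF1), 125 to 232 kb from the LDB1 TSS. The LDB1 site with a −log10 p of 25.75 was 0.122 kb from the GBF1 TSS. SSBP4 and LMO1 had 1 each, in introns of PGPEP1 and STK33, and ISL1, LMO2, LMO3, LMO4 and RLIM had none.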

How the data were processed

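Peak lists of 2 MEIS ChIP samples and the list of reproducible sites were analysed. Per the labels, the authors trimmed reads of 36 bp with cutadapt 1.16, aligned them to GRCh37 with Bowtie2 2.3.0, filtered on a mapping quality of 30 (SAMtools 1.2), removed duplicates (Picard 2.15.0), called peaks in each replicate against input with MACS2 (version not given in the sources used here) at a p-value of 0.01, and ran IDR 2.0.3. The deposited files hold for each peak its fold enrichment (a linear ratio) with −log10 p and q, and for each site −log10 p and a scaled IDR score, which saturates at 1000, so the deposited −log10 IDR was used for the limit of 0.001. Another 8 columns of per-replicate values were not used. Read numbers are not given, so depth is unknown, and intervals cover the number of peaks only. Which wash each replicate received is not stated.

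Genes came from GENCODE 44 mapped to GRCh37. A TSS is that of the canonical transcript, and positions are those of summits. The summit of a site is the one given in the list. The value of a site in a replicate is that of its strongest overlapping peak. Overlap means 1 bp or more. Consensus words were searched on both strands in windows of 500 bp. Sites were aligned with blastn 2.17.0 (word size 7, no low-complexity filter). Python 3.11.15 with pysam 0.24.0 was used, and counting, overlap and word search were tested on simulated data. There is 1 group of samples, so no difference between groups was tested and peaks were not treated as replicates. All 10 members, every site near them and, for a member without one, its strongest pair of peaks are named. Members and lists were chosen with earlier results of these data known.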

Additional observations from a re-analysis of the deposited data

How the results depend on the processing

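Of 53 alternative values for 12 results, 36 differed from the main value by no more than 1.5 times for a count, or by no more than the spread between replicates or the interval of a share. With gene bodies extended by 100 kb, 0 members had a site, 0 sites were counted, and 19 replicate 1 and 31 replicate 2 peaks were left. With 500 kb, 7 members had 15 sites and the median percentile among length-matched genes was 52.4. The share of all protein-coding genes with a site was not computed at 500 kb or for single replicates. An IDR of 0.001 or less left 3 sites, whose median strength was at the 75.8th percentile of such sites. By nearest TSS, 2 members had 2 sites, where 13.99% of all protein-coding genes had at least 1. Across the 2 settings that each left out a replicate, members with a site ranged from 3 to 5, sites from 4 to 5, the median percentile from 30.1 to 44.4, and the percentile of the median strength from 46.3 to 57.0. With a −log10 p of at least 5, 25 replicate 1 and 29 replicate 2 peaks remained in the windows, and 64.0% of the former overlapped the latter, against 75.8% of all such peaks. Within 5 kb of the TSS in place of 1 kb, 1 member, LHX2, had a peak. The share of all protein-coding genes was not computed at 5 kb. The cause of these changes was not tested beyond what each setting does to the number of peaks counted. The alignment of the LHX2 and LHX9 sites kept its 40.1 bits in windows of 1000 bp and with a word size of 11, both chosen after seeing the data, as were the settings that left out a replicate for strength, TGACAG and the TSS, and those for the cofactor list and the consensus words. No paired analysis was possible because there is 1 group with values, the MEIS ChIP samples. The unknown depth limits any comparison of peak numbers between the replicates.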

Other observations

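Downstream of LHX2 and LHX9 lie a further pair of related genes, NEK6 and NEK7. Where NEK6 held a reproducible site and a second pair of peaks in its intron 1, NEK7 held 1 peak within the LHX9 window, from replicate 2 only, with a −log10 p of 5.93. Another replicate 2 peak without a counterpart, with a −log10 p of 4.48, stood outside the gene body, 0.383 kb from the NEK7 TSS. Peaks beyond the window ends were not counted. The strongest replicate 2 peak in any of the 10 windows without a replicate 1 counterpart stood 95.8 kb upstream of LMX1B, with a −log10 p of 16.8 and a fold enrichment of 7.16. In replicate 1, the strongest peak without a counterpart had a −log10 p of 8.40 and lay in intron 15 of CEP350, in the LHX4 window.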
